A study of Mus musculus with 3 samples.

Results

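Matrix metalloproteinases are zinc-dependent proteases that cut collagens, elastin, proteoglycans and other matrix proteins, and the tissue inhibitors of metalloproteinases (TIMPs) bind and block them. The set described here is a list of 10 genes, found by their symbols, that covers the TIMPs and a selection of the metalloproteinases: the secreted proteases Mmp2 and Mmp11, the membrane-anchored proteases Mmp14, Mmp15, Mmp16 and Mmp17, and the inhibitors Timp1, Timp2, Timp3 and Timp4. They are 10 of the 36167 features counted. All 10 had UMIs (unique molecular identifiers, 1 per captured RNA molecule) and all 10 passed the filter on low counts, and each is followed here across the classes of nuclei of the newborn aortic root.

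The material was aortic valve structures of mouse pups on postnatal day 1, flash frozen and pooled, with 22 to 24 aortic roots per pool. The 3 pools are separate pooled samples of 1 group, and no other group is part of the data. The mice, B6.Cg-Scx<tm1.1(EGFP)Skom, had an allele that carries EGFP at Scx, which every pool shares, with no label for its zygosity. Nuclear RNA was read with the 10x Multiome assay, whose chromatin readout is not analysed here.

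Most metalloproteinases are made as inactive precursors, and a propeptide has to be removed before they cut. On the cell surface, the membrane protease MMP14 holds TIMP2, the complex captures the precursor of MMP2, and a neighbouring MMP14 molecule then activates it, so that an inhibitor is part of an activation step. MMP11 and the membrane-type enzymes are usually activated inside the cell by furin-like convertases. TIMP3 differs from the other inhibitors in that it stays bound to the extracellular matrix. In valves and arterial walls these proteins are known for shaping collagen and elastin during growth and for matrix breakdown in disease.

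After nuclei with fewer than 1000 UMIs, with over 5% mitochondrial UMIs or marked as doublets had been left out, 6459, 3078 and 3593 nuclei were analysed in pools 1, 2 and 3, of 21140 deposited. They held 33853754, 17604323 and 18217799 UMIs, with medians of 4288, 4771 and 3341 per nucleus. Between 14.1% and 41.8% of the deposited nuclei of a pool had over 5% mitochondrial UMIs. The 27 clusters of nuclei were named from marker genes, and the word "like" marks classes that the labels do not assign. The 9 largest named classes entered the tests, with 3560 smooth muscle-like, 2753 endothelial-like, 2353 cardiomyocyte-like, 1430 valve interstitial-like, 1014 fibroblast-like, 370 mesothelial-like, 272 macrophage-like, 205 pericyte-like and 121 lymphatic endothelial-like nuclei. Between 5 of 10 (smooth muscle-like) and all (macrophage-like, mesothelial-like and pericyte-like) of a class's markers were highest in that class. A cluster of 759 nuclei stayed unnamed because its 4 leading genes were haemoglobin genes, although 6 cardiomyocyte markers met the marker rule in it. A further 165 nuclei met it for no class. Pools 1 and 2 shared 99 barcodes, pools 1 and 3 shared 59 and pools 2 and 3 shared 44. No other label separates the pools. The tests take the pool as a block, so p-values measure how far differences between classes vary among these pools. They do not measure shifts that all classes of a pool share.

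Timp1, Timp2 and Timp3, which were high in the mesothelial-like class and of which Timp1 and Timp3 separated valve interstitial-like from fibroblast-like nuclei, and Mmp14, the membrane partner of TIMP2, are shown by the 250 bases before their transcript start (RefSeq, mouse build GRCm38.p6, in the direction of the gene), because the comparisons of the inhibitors and of the partners of MMP2 turn on these genes. Capitals mark matches on either strand, and adjoining matches run together. The motifs searched were the GC box, spelled GGGCGG, and the CCAAT box, spelled by its name. Also searched were the site bound by AP-1, spelled TGANTCA, and the TATA box with the letters TATAAA.
Mmp14: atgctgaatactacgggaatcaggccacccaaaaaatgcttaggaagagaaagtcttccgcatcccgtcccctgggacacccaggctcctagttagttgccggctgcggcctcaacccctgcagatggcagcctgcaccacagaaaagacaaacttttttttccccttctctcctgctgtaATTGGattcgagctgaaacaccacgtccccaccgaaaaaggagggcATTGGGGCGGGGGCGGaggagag
Timp1: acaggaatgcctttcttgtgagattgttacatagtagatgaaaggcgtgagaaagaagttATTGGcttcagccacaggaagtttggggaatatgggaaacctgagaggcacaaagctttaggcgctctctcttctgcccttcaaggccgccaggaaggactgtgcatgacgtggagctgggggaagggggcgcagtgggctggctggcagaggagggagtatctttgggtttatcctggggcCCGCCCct
Timp2: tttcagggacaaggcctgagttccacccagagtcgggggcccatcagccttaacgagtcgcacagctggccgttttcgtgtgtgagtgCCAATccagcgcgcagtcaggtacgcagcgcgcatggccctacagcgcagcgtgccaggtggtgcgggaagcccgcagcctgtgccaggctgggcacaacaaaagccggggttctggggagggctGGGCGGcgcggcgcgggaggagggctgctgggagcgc
Timp3: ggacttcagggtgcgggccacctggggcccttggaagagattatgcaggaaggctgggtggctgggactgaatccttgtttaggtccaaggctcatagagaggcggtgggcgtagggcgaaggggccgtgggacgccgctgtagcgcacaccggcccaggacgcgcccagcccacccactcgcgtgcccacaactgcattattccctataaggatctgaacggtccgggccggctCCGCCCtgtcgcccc
The windows lie at chr14:54431348-54431597 on the plus strand for Mmp14, chrX:20869916-20870165 on the plus strand for Timp1, chr11:118355412-118355661 on the minus strand for Timp2 and chr10:86300162-86300411 on the plus strand for Timp3. Mmp14 had 2 GC boxes and 2 CCAAT boxes, Timp1 and Timp2 had 1 of each, and Timp3 had 1 GC box and no CCAAT box. Among 32851 promoter windows of this length, a GC box was present in 32.7%, a CCAAT box in 33.8%, an AP-1 site in 6.75% and a TATA box in 12.4%. The share of G and C was 68.0% for Timp2, 65.6% for Timp3, 55.2% for Mmp14 and 54.4% for Timp1, against a median of 52.4% over all windows. Promoters were matched for 7 of the 10 genes, all but Mmp2, Mmp16 and Mmp17, and none of the 7 windows held an AP-1 or TATA match. These matches describe the letters of the windows only.

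Within the nuclei, the level of a gene is given as its UMIs per 1000000 UMIs of a class in a pool (CPM). How gene length bears on these counts was not tested, so levels are compared between classes for 1 gene and not between genes. Differences are log2 values from edgeR's quasi-likelihood test of a class against the mean of the other 8, with the pool as a block, and a difference counts as called at a Benjamini-Hochberg adjusted p under 0.05 over 13913 genes. The 10 genes were kept out of the genes used for clustering.

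**Figure D1:**
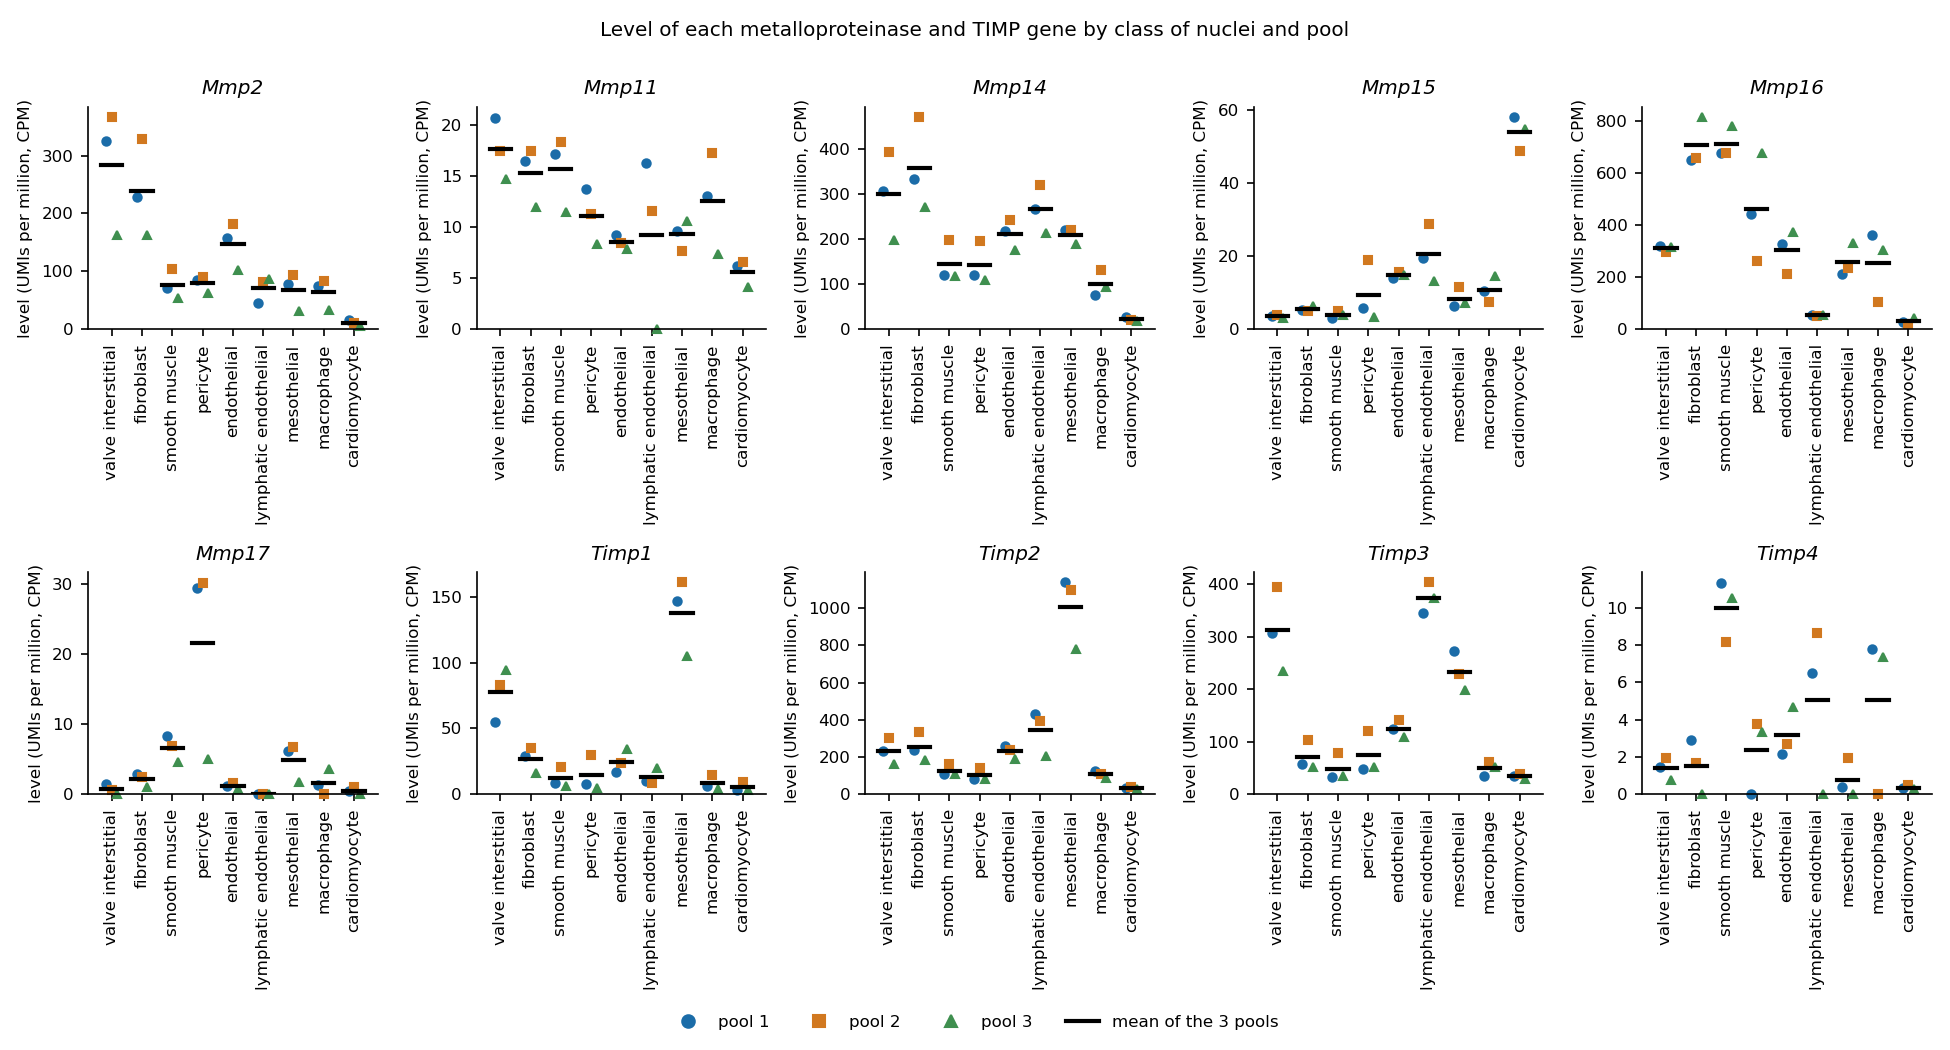
Level of each gene (y axis, CPM, linear) in the 9 classes of nuclei (x axis, without the word "like"), with 1 symbol per pool and a bar at the mean of the 3 pools. The mean of Mmp2 was highest in the valve interstitial class at 284, Mmp15 in the cardiomyocyte class at 54.0, Mmp16 in the smooth muscle class at 713 and Timp2 in the mesothelial class at 1005.

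Classes differed in how many of the 10 genes stood above or below the others. Valve interstitial-like nuclei had 7 higher, where 19.2% of all genes tested were called higher, and 1 lower, where 14.7% were called lower. Mesothelial-like nuclei had 5 higher and 0 lower by edgeR and by DESeq2 (1 lower at an unadjusted edgeR p under 0.05), against 30.8% and 30.6% of all genes. Cardiomyocyte-like nuclei had 1 higher and 8 lower, against 35.6% and 32.9%. These do not include the unnamed haemoglobin-led cluster with 6 cardiomyocyte markers, where Mmp14 was 225 CPM against 22.4 in the cardiomyocyte-like class. Macrophage-like nuclei had 0 higher and 5 lower by both tools (0 higher at an unadjusted edgeR p under 0.05), against 15.6% and 11.3%. Fibroblast-like nuclei had 4 higher and 2 lower (17.1% and 11.4% of all genes), and smooth muscle-like nuclei had 4 of each (24.4% and 19.1%). Endothelial-like nuclei had 4 higher and 1 lower (22% and 17.1%), lymphatic endothelial-like nuclei had 4 higher and 1 lower (12.8% and 12.2%) and pericyte-like nuclei had 2 of each (10.4% and 5.31%). Timp4 passed the filter on low counts only through smooth muscle-like nuclei, and Mmp17 only through pericyte-like and smooth muscle-like nuclei, where they count as higher. The median difference of the 10 genes was 0.58 in valve interstitial-like nuclei and -2.00 in cardiomyocyte-like nuclei, where that of all genes was 0.01 and -0.02.

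Several of these counts depended on single pools or on the processing. The calls of Timp2 in fibroblast-like (0.45), valve interstitial-like (0.34) and endothelial-like nuclei were lost without a mitochondrial limit, at 0.18, 0.17 and 0.17, and without the pool as a block, at 0.47, 0.36 and 0.31. In valve interstitial-like nuclei Timp2 was also not called at a minimum of 500 UMIs (0.28) or a clustering resolution of 0.5 (0.30). In valve interstitial-like nuclei Mmp16 (0.43) and Timp2 (0.34) were no longer called without pool 1 (0.42 and 0.36) or without pool 2 (0.29 and 0.23), and Mmp11 was not called without pool 1 (0.69), which left 4 of the 7. Mmp16 was also not called there with DESeq2 (0.40), with RLE scaling (0.39), without the pool as a block (0.41), at 2000 UMIs (0.39) or without the lymphatic endothelial-like class (0.10). Endothelial-like nuclei kept 2 of the 4 higher calls without pool 1, where Mmp15 (0.50), Timp2 (0.25) and Mmp11 (-0.45) were not called. Timp2 was not called there without pool 3 (0.28), nor Mmp11 without pool 2 (-0.46) or without a filter on low counts (-0.46). Macrophage-like nuclei had 3 lower without pool 2, where Mmp2 (-0.65) and Timp1 (-1.95) were not called. There Timp1 was not called without pool 1 (-1.69) or at 500 UMIs (-1.67). Mmp2 was not called there without pool 3 (-0.53), without the pool as a block (-0.64) or at a resolution of 0.5 (-0.35). In pericyte-like nuclei Timp3 (-0.73) was not called without pool 1 (-0.54), without pool 3 (-0.65) or under 8 further alternatives. Timp2 in fibroblast-like nuclei (0.45) was not called without pool 2 (0.32), and Timp1 in smooth muscle-like nuclei (-0.86) was not called without pool 1 (-0.78).

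**Figure D2:**
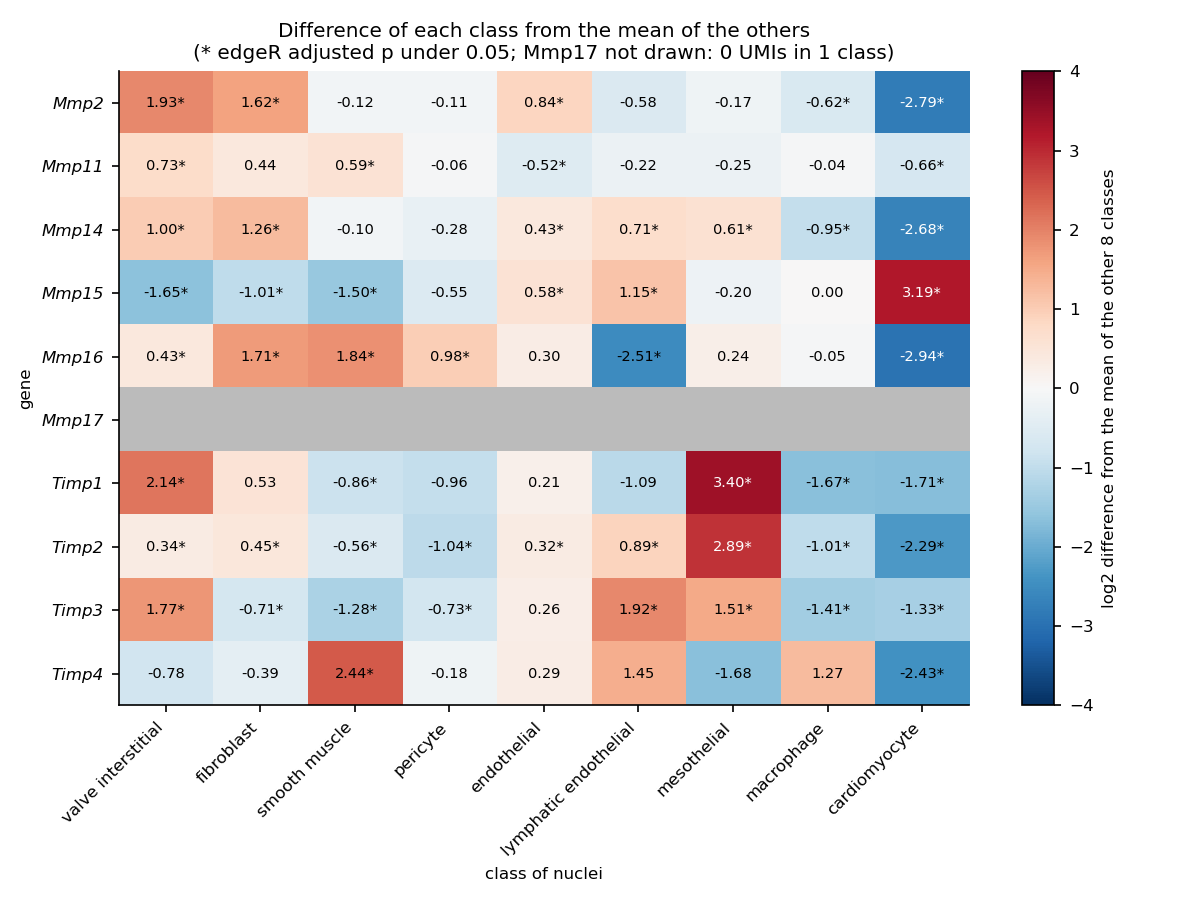
Log2 difference of each class (x axis) from the mean of the other 8 (colour and printed value) for the genes (y axis). An asterisk marks an edgeR adjusted p under 0.05, and the Mmp17 row is left grey because the lymphatic endothelial class had 0 UMIs of it. Values printed include 3.40 for Timp1 in the mesothelial class and 3.19 for Mmp15 in the cardiomyocyte class.

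Mmp2 encodes gelatinase A, a secreted protease that degrades denatured collagen and basement membrane collagen. In valve interstitial-like nuclei its level was 325, 366 and 162 CPM in pools 1, 2 and 3 (284 ± 108, SD, n = 3). Fibroblast-like nuclei had 228, 328 and 163 CPM (240 ± 83.1), and endothelial-like nuclei had 157, 181 and 103 CPM (147 ± 40.3). Pool 2 was highest and pool 3 lowest in each of these classes, the valve interstitial-like and fibroblast-like ranges overlapped, and in the same pool valve interstitial-like exceeded fibroblast-like nuclei in 2 of 3 pools. Pericyte-like, smooth muscle-like, lymphatic endothelial-like, mesothelial-like and macrophage-like nuclei had means between 64.1 and 79.4 CPM with overlapping ranges. Cardiomyocyte-like nuclei had 16.0, 11.1 and 6.46 CPM, below every other class in every pool. Mmp2 was higher than in the other classes by 1.93 (SE 0.11, edgeR adjusted p = 1.40e-14) in valve interstitial-like, 1.62 (SE 0.12, adjusted p = 4.37e-12) in fibroblast-like and 0.84 (SE 0.11, adjusted p = 4.63e-07) in endothelial-like nuclei. Cardiomyocyte-like nuclei were lower (-2.79, SE 0.17, edgeR adjusted p = 8.08e-15).

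Mmp11 encodes stromelysin 3, a secreted protease that is known from remodelling stroma. It had 793 UMIs in all, and its levels spread little over the classes: 20.7, 17.4 and 14.8 CPM in valve interstitial-like nuclei, 17.1, 18.4 and 11.5 in smooth muscle-like nuclei and 16.5, 17.4 and 11.9 in fibroblast-like nuclei. The ranges of these 3 classes overlapped. Endothelial-like nuclei had 9.21, 8.48 and 7.91 CPM and cardiomyocyte-like nuclei 6.19, 6.64 and 4.14 CPM, and these last ranges did not overlap. The difference was 0.73 in valve interstitial-like (SE 0.17, edgeR adjusted p = 0.00130), 0.59 in smooth muscle-like and -0.66 in cardiomyocyte-like nuclei. Each of these calls was lost without pool 1, the deepest pool, where the values were 0.69, 0.63 and -0.60. The last was also lost without a mitochondrial limit (-0.33).

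Mmp14 encodes the membrane-type protease that cuts fibrillar collagen at the cell surface and activates MMP2. Its level was 332, 470 and 271 CPM in fibroblast-like nuclei, 306, 392 and 198 CPM in valve interstitial-like nuclei and 267, 320 and 213 CPM in lymphatic endothelial-like nuclei. Fibroblast-like nuclei were above valve interstitial-like nuclei in 3 of 3 pools, though the ranges overlapped. Endothelial-like nuclei followed with 217, 242 and 176 CPM and mesothelial-like nuclei with 221, 220 and 188 CPM. Smooth muscle-like (146 ± 46.0), pericyte-like (141 ± 47.8) and macrophage-like nuclei (99.9 ± 28.1) were lower, and cardiomyocyte-like nuclei had 27.9, 21.6 and 17.6 CPM, with no overlap with any other class. The difference from the other classes was 1.26 in fibroblast-like nuclei (SE 0.10, edgeR adjusted p = 3.44e-11) and 1.00 in valve interstitial-like nuclei (SE 0.10, adjusted p = 2.99e-09). It was -0.95 in macrophage-like nuclei (SE 0.15, edgeR adjusted p = 9.85e-06) and -2.68 in cardiomyocyte-like nuclei (SE 0.14, adjusted p = 2.43e-16). Mmp14 was also called higher in lymphatic endothelial-like (0.71), mesothelial-like (0.61) and endothelial-like nuclei (0.43). The first was not called without a mitochondrial limit (0.42), and the last was not called without the pool as a block (0.42).

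Mmp15, a second transmembrane metalloproteinase, had a different order. Cardiomyocyte-like nuclei had 58.2, 48.9 and 54.8 CPM (54.0 ± 4.69), and all other classes were below 30 CPM in every pool. Lymphatic endothelial-like nuclei had 19.5, 28.9 and 13.3 CPM and endothelial-like nuclei 14.1, 15.6 and 14.8 CPM, with overlapping ranges. Valve interstitial-like nuclei were lowest at 3.64, 3.87 and 3.11 CPM, and their range overlapped that of smooth muscle-like nuclei (4.02 ± 0.844). Mmp15 was higher by 3.19 in cardiomyocyte-like nuclei (SE 0.13, edgeR adjusted p = 3.13e-19), the only one of the 10 genes that was. It was lower in valve interstitial-like (-1.65, SE 0.28, edgeR adjusted p = 2.52e-05) and smooth muscle-like nuclei (-1.50, SE 0.22, adjusted p = 1.42e-06). Its call in endothelial-like nuclei (0.58) was lost without pool 1 (0.50) or at a resolution of 0.5 (0.37), and that in fibroblast-like nuclei (-1.01) without pool 1 (-1.07) or pool 2 (-0.82). That in lymphatic endothelial-like nuclei (1.15) was lost without pool 1 (1.18) or pool 2 (0.91). It was also lost without a filter on low counts (1.11), without a mitochondrial limit (1.01), and at 500 UMIs (1.03) or 2000 UMIs (1.03).

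Mmp16, the third transmembrane metalloproteinase, gave the most UMIs of the 10 genes, 24813 in all, and with 266 kb it is also the longest of them. Smooth muscle-like nuclei had 678, 679 and 781 CPM and fibroblast-like nuclei 651, 658 and 814 CPM, 2 overlapping ranges. Pericyte-like nuclei spread widely at 443, 264 and 678 CPM, and macrophage-like nuclei at 361, 106 and 303 CPM, with pool 2 lowest in each. Valve interstitial-like nuclei had 321, 296 and 318 CPM, less spread than endothelial-like nuclei at 329, 212 and 374 CPM. At the low end were lymphatic endothelial-like nuclei with 55.4, 52.0 and 53.2 CPM and cardiomyocyte-like nuclei with 26.7, 20.6 and 43.4 CPM, which overlapped neither each other nor the rest. Mmp16 was higher in smooth muscle-like (1.84, SE 0.14, edgeR adjusted p = 4.79e-12) and fibroblast-like nuclei (1.71, SE 0.14, adjusted p = 8.23e-11). It was lower in lymphatic endothelial-like (-2.51, SE 0.30, edgeR adjusted p = 1.04e-07) and cardiomyocyte-like nuclei (-2.94, SE 0.21, adjusted p = 3.27e-13). Its pericyte-like value of 0.98 was not called under 6 alternatives: 0.08 with doublets kept, 0.51 without a mitochondrial limit, 0.58 at 500 UMIs, 0.41 at 2000 UMIs, 0.33 at a clustering resolution of 0.5 and 0.36 at a resolution of 2.

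Mmp17, which is held in the membrane by a lipid anchor, was the rarest of the proteases with 235 UMIs. Pericyte-like nuclei had 29.4, 30.2 and 5.01 CPM from 15, 8 and 3 UMIs, so pool 3 stood below the other two. Smooth muscle-like nuclei had 8.25, 6.94 and 4.60 CPM from 77, 17 and 14 UMIs, and mesothelial-like nuclei 6.14, 6.74 and 1.77 CPM from 16, 7 and 1 UMIs. In each pool the order was pericyte-like, smooth muscle-like, mesothelial-like, and the lymphatic endothelial-like class had 0 UMIs in every pool. Because a fitted difference depends on that class, it was also taken without it: 3.37 in pericyte-like (SE 0.43), 1.66 in smooth muscle-like (SE 0.28) and 1.37 in mesothelial-like nuclei. All 3 were called by edgeR with that class (3.99, adjusted p = 7.86e-07; 2.35, adjusted p = 7.57e-06; 1.95, adjusted p = 0.00208) and without it.

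Timp1 encodes a secreted inhibitor that is known to be inducible. Mesothelial-like nuclei had 147, 161 and 105 CPM (137 ± 29.2) and valve interstitial-like nuclei 54.6, 83.2 and 94.1 CPM (77.3 ± 20.4). These ranges did not overlap each other or those of the other classes, of which fibroblast-like (29.1, 34.9 and 16.3 CPM) and endothelial-like nuclei (16.9, 23.4 and 34.2 CPM) came next. Pool 3 had the highest value in valve interstitial-like and endothelial-like nuclei and the lowest in mesothelial-like and fibroblast-like nuclei. Timp1 exceeded the other classes by 3.40 in mesothelial-like (SE 0.20, edgeR adjusted p = 5.93e-15) and 2.14 in valve interstitial-like nuclei (SE 0.22, adjusted p = 3.20e-09). It was lower in cardiomyocyte-like nuclei (-1.71, SE 0.34, edgeR adjusted p = 6.33e-05).

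Timp2 encodes the inhibitor that takes part in the activation of MMP2. Its level in mesothelial-like nuclei was 1138, 1097 and 781 CPM (1005 ± 196), above every other class in every pool. Lymphatic endothelial-like (433, 393 and 206 CPM), fibroblast-like (238, 335 and 187 CPM), valve interstitial-like (231, 300 and 164 CPM) and endothelial-like nuclei (261, 240 and 190 CPM) had overlapping ranges. Smooth muscle-like (126 ± 31.1), macrophage-like (108 ± 19.1) and pericyte-like nuclei (103 ± 34.9) were lower and overlapped, and cardiomyocyte-like nuclei had 36.3, 38.8 and 26.1 CPM. Timp2 was higher by 2.89 in mesothelial-like (SE 0.09, edgeR adjusted p = 1.75e-21) and by 0.89 in lymphatic endothelial-like nuclei (SE 0.13, adjusted p = 5.65e-06). It was lower in pericyte-like (-1.04, SE 0.16, edgeR adjusted p = 1.24e-05), macrophage-like (-1.01, SE 0.15, adjusted p = 3.07e-06) and cardiomyocyte-like nuclei (-2.29, SE 0.14, adjusted p = 5.12e-15). Mesothelial-like nuclei had a median of 9917 UMIs and 2.91% mitochondrial UMIs, the highest of the 9 classes, and the part of either in these values was not tested.

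Timp3 encodes the matrix-bound inhibitor. Lymphatic endothelial-like nuclei had 345, 404 and 373 CPM (374 ± 29.5), valve interstitial-like nuclei 307, 394 and 234 CPM (312 ± 79.9) and mesothelial-like nuclei 273, 228 and 199 CPM (233 ± 37.6). Neighbours in this order overlapped in range, but in each of the 3 pools the order was the same. Endothelial-like nuclei were below the mesothelial-like range at 124, 141 and 108 CPM, and the remaining classes had means of 34.0 to 73.8 CPM. Fibroblast-like nuclei had 57.6, 103 and 51.0 CPM, well under the valve interstitial-like range. Timp3 was higher by 1.92 in lymphatic endothelial-like (SE 0.17, edgeR adjusted p = 2.52e-10), 1.77 in valve interstitial-like (SE 0.12, adjusted p = 1.36e-12) and 1.51 in mesothelial-like nuclei (SE 0.14, adjusted p = 8.59e-11). It was lower in macrophage-like (-1.41, SE 0.22, edgeR adjusted p = 1.12e-05), cardiomyocyte-like (-1.33, SE 0.16, adjusted p = 1.84e-08), smooth muscle-like (-1.28, SE 0.16, adjusted p = 1.08e-07) and fibroblast-like nuclei (-0.71, SE 0.17, adjusted p = 0.00171).

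Timp4, an inhibitor known from heart and vessels, had 282 UMIs. Smooth muscle-like nuclei had 11.4, 8.16 and 10.5 CPM from 106, 20 and 32 UMIs, the highest mean of the 9 classes (10.0 ± 1.66). Lymphatic endothelial-like nuclei (5.06 ± 4.51 CPM, 5 UMIs) had a range that overlapped it, and macrophage-like nuclei (5.05 ± 4.38 CPM, 10 UMIs) had one just below it. Timp4 was higher by 2.44 in smooth muscle-like nuclei (SE 0.30, edgeR adjusted p = 8.38e-08). In the fit of all 9 classes it passed the filter on low counts only through that class, so this call is not independent of the filter. Cardiomyocyte-like nuclei had the lowest mean (0.361 ± 0.119 CPM), and their difference of -2.43 (SE 0.61, edgeR adjusted p = 0.000890) turned to 0.24, not called, when nuclei with over 5% mitochondrial UMIs were included. It was also not called with doublets kept (-1.24, SE 178), at 500 UMIs (-0.65, SE 15.6) or at 2000 UMIs (-1.19, SE 157). With SEs of this size, these values give no measure of the difference. Of the 8 lower calls of that class, that of Timp4 thus rested on the settings. That of Mmp11 was also lost without a mitochondrial limit (-0.33) or without pool 1 (-0.60).

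Valve interstitial-like nuclei were next set against the other main classes of the root. Against fibroblast-like nuclei, 2 of the 10 genes were higher and 1 lower, where 8.43% and 8.52% of all genes were. Higher were Timp3, by 2.20 (SE 0.20, edgeR adjusted p = 1.03e-09), and Timp1, by 1.43 (SE 0.28, adjusted p = 0.000330). Mmp16 was lower (-1.13, SE 0.21, adjusted p = 0.000143). The activation partners were not called: the difference was 0.27 for Mmp2 (edgeR adjusted p = 0.277), -0.23 for Mmp14 (adjusted p = 0.333) and -0.09 for Timp2 (adjusted p = 0.769). The direction was the same in 3 of 3 pools for Timp1, Timp3, Mmp16, Mmp14 and Timp2, and in 2 of 3 for Mmp2.

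Against smooth muscle-like nuclei, valve interstitial-like nuclei had 5 genes higher and 3 lower, where 15.2% and 15.4% of all genes were. Higher were Timp3 (2.71, SE 0.19, edgeR adjusted p = 1.99e-12), Timp1 (2.67, SE 0.26, adjusted p = 2.07e-09), Mmp2 (1.82, SE 0.16, adjusted p = 1.70e-10), Mmp14 (0.98) and Timp2 (0.81). Lower were Mmp16 (-1.25, SE 0.21, edgeR adjusted p = 1.59e-05), Mmp17 (-3.02, SE 0.55, adjusted p = 6.73e-05) and Timp4 (-2.86, SE 0.51, adjusted p = 4.97e-05), and valve interstitial-like nuclei held 5 Mmp17 and 8 Timp4 UMIs in all. Timp4 passed the filter on low counts only through smooth muscle-like nuclei, and Mmp17 only through these and pericyte-like nuclei. Against endothelial-like nuclei, 5 genes were higher and 1 lower, where 19.5% and 19.9% of all genes were. Timp1 (1.72, SE 0.23, edgeR adjusted p = 3.99e-07), Timp3 (1.35, SE 0.17, adjusted p = 2.18e-07), Mmp11 (1.11, SE 0.20, adjusted p = 5.13e-05) and Mmp2 (0.97, SE 0.15, adjusted p = 5.00e-06) were higher, and Mmp15 was lower (-1.98, SE 0.29, adjusted p = 1.54e-06). Mmp14 was higher by 0.51, a call lost without pool 2, where it was 0.38. It was also lost without the pool as a block (0.54) and without a mitochondrial limit (0.37).

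Mesothelial-like nuclei differed from fibroblast-like nuclei in 4 genes that were higher and 3 that were lower, where 27.2% and 27.3% of all genes were. Timp1 (2.55, SE 0.26, edgeR adjusted p = 2.74e-09), Timp2 (2.17, SE 0.15, adjusted p = 4.81e-13) and Timp3 (1.97, SE 0.20, adjusted p = 2.74e-09) were higher, and Mmp2 (-1.59, SE 0.18, adjusted p = 1.35e-08) and Mmp16 (-1.31, SE 0.22, adjusted p = 7.93e-06) were lower. The remaining calls were Mmp17 (1.34) and Mmp14 (-0.58), and without pool 2 they were 1.35 and -0.32 and no longer called. Mmp14 was also not called at a minimum of 2000 UMIs (-0.26) or a clustering resolution of 2 (-0.26). Mmp17 was also not called without the pool as a block (1.40), without a mitochondrial limit (1.16), at 2000 UMIs (1.21) or at resolutions of 0.5 (1.40) and 2 (1.32). Between the mural classes, pericyte-like exceeded smooth muscle-like nuclei in Mmp17 by 1.46 (SE 0.41, edgeR adjusted p = 0.0319) and were lower in Mmp16 (-0.77, SE 0.22, adjusted p = 0.0309), where 3.23% of all genes were higher and 2.55% lower. Without pool 2 neither was called, at 1.28 for Mmp17 and -0.47 for Mmp16, and without pool 1 Mmp16 was -0.76. Neither was called without the pool as a block (1.40 and -0.70), and Mmp16 was not called with DESeq2 (-0.74) or without the lymphatic endothelial-like class (-0.74).

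Clusters within a class differed in these genes as well. Each cluster was set against the other clusters of its class in a fit over 12846 genes, in which Mmp17 was too low to be tested. Clusters are named here by their leading genes. Where a class had 2 clusters, the test of one is that of the other with the sign turned. The valve interstitial-like class had 2, 1 of 923 nuclei led by Rmst and Pcdh15 and 1 of 507 nuclei led by Abi3bp and Ctnna2. Timp3 was 358, 481 and 277 CPM in the Rmst cluster and 187, 197 and 113 CPM in the Abi3bp cluster, and Timp1 was 61.7, 112 and 122 against 37.9, 18.9 and 14.9 CPM. Mmp16 went the other way, with 229, 188 and 229 CPM in the Rmst cluster and 539, 539 and 570 CPM in the Abi3bp cluster. None of these ranges overlapped. The differences were 1.16 for Timp3 (SE 0.19, edgeR adjusted p = 6.21e-06), 1.79 for Timp1 (SE 0.45, adjusted p = 0.00394) and -1.31 for Mmp16 (SE 0.22, adjusted p = 6.98e-06), where 5.42% of all genes were higher and 4.52% lower in the Rmst cluster. Mmp14 was higher by 0.54, and neither it (0.42) nor Timp1 (1.50) was called without pool 2, and Mmp14 was also not called without the pool as a block (0.55). Mmp2 and Timp2 were not called between the clusters.

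**Figure D3:**
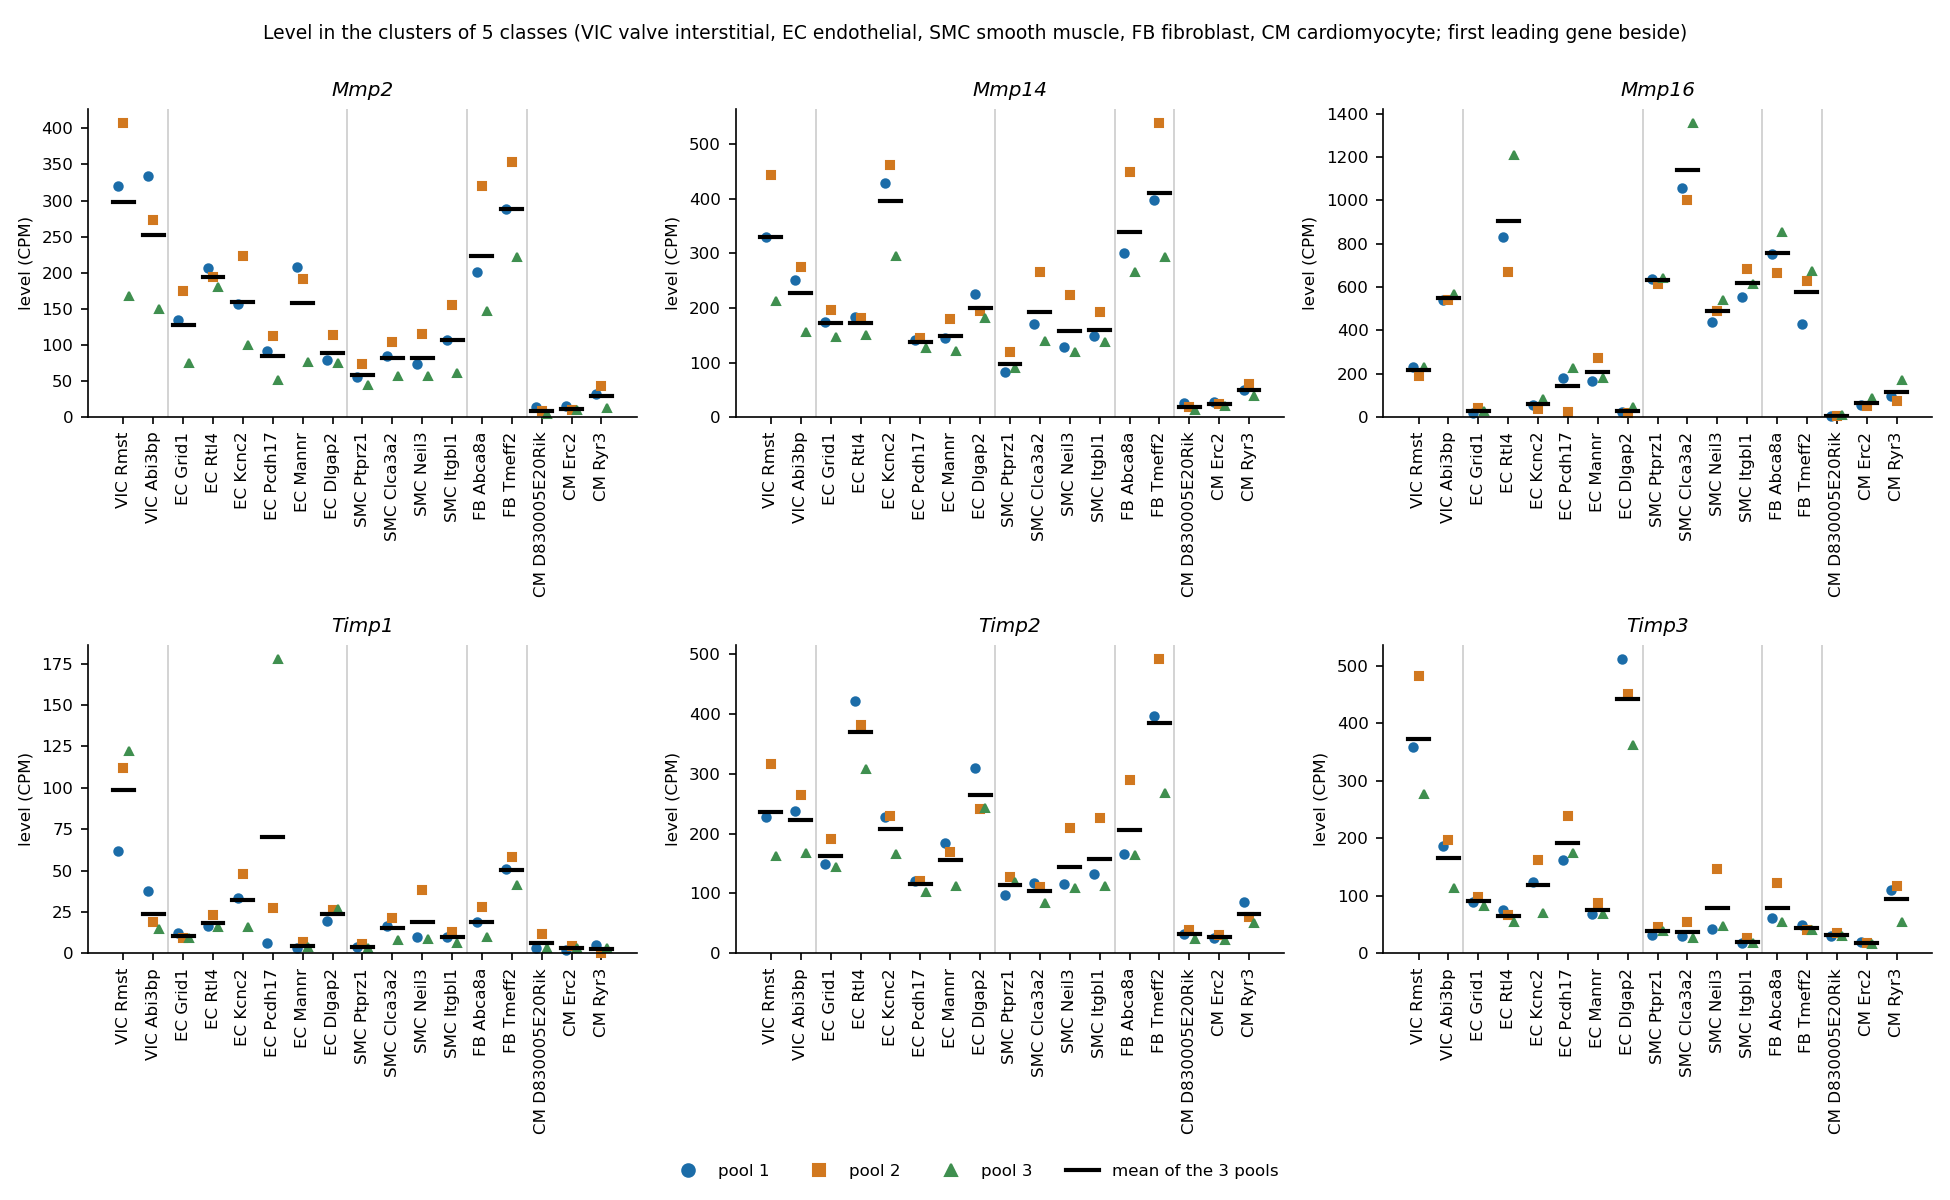
Level (y axis, CPM) of 6 genes in the clusters of 5 classes (x axis, with the class and the first leading gene), with 1 symbol per pool and a bar at the mean of the 3 pools. Among the endothelial clusters, the mean of Mmp16 was 28.6 in the Grid1 cluster and 903 in the Rtl4 cluster, and Timp3 peaked at 441 in the Dlgap2 cluster.

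Endothelial-like clusters spread widely in Mmp16. A cluster of 780 nuclei led by Rtl4 and Cytl1 had 830, 670 and 1209 CPM, while a cluster of 808 nuclei led by Grid1 and Col23a1 had 18.4, 41.9 and 25.7 CPM, and no other endothelial-like cluster tested reached the Rtl4 range. In the Rtl4 cluster Mmp16 was higher by 3.77 (SE 0.16, edgeR adjusted p = 2.81e-26), Timp2 by 1.17 (SE 0.11, adjusted p = 1.51e-12) and Mmp2 by 0.79 (SE 0.13, adjusted p = 3.72e-06), while Timp3 was lower (-1.06, SE 0.17, adjusted p = 2.26e-06), where 11.3% of all genes were higher and 6.86% lower. Mmp15 was lower there as well (-1.41, SE 0.31, edgeR adjusted p = 0.000430), but not called without pool 1 (-0.95), and Mmp14 was not called (-0.10). A cluster of 186 nuclei led by Dlgap2 and Cntnap5a had Timp3 at 511, 450 and 362 CPM, higher by 2.09 (SE 0.15, edgeR adjusted p = 7.27e-17), with Mmp16 lower (-2.34, SE 0.35, adjusted p = 4.48e-07), where 9.4% of all genes were higher and 10.2% lower. A cluster of 434 nuclei led by Kcnc2 and Fam155a had Mmp14 at 430, 463 and 296 CPM, higher by 1.26 (SE 0.10, edgeR adjusted p = 7.11e-15), where 13.9% of all genes were higher. These 2 clusters had median mitochondrial shares of 2.55% and 2.87%, against 1.37% in the whole class, and its part in their values was not tested.

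A cluster of 244 endothelial-like nuclei led by Pcdh17 and Aplnr had Mmp15 at 44.8, 51.4 and 57.3 CPM, higher by 2.10 than in the other endothelial-like clusters (SE 0.25, edgeR adjusted p = 1.36e-09), where 15.7% of all genes were higher and 9.55% lower. Its range overlapped the range of the cardiomyocyte-like class for this gene. Timp2 was lower there (-0.97, SE 0.16, edgeR adjusted p = 1.57e-06). Timp1 in this cluster was 6.05, 27.2 and 178 CPM, so its call of 1.89 rested on pool 3, and without pool 3 the difference was -0.28.

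Among smooth muscle-like clusters, the 950 nuclei led by Clca3a2 and Pi15 had Timp4 at 20.9, 21.4 and 28.4 CPM and Mmp16 at 1056, 1003 and 1356 CPM. The difference was 2.15 for Timp4 (SE 0.42, edgeR adjusted p = 0.000128) and 0.96 for Mmp16 (SE 0.15, adjusted p = 4.13e-06), where 7.95% of all genes were higher. In the 1484 nuclei led by Ptprz1 and Mylk4, Mmp14 was lower (-0.69, SE 0.13, edgeR adjusted p = 3.77e-05), where 7.73% of all genes were lower. A cluster of 583 nuclei led by Neil3 and Diaph3, with cell cycle genes among its leading genes, had Timp3 at 41.7, 147 and 47.7 CPM, higher by 1.19 (SE 0.21, edgeR adjusted p = 7.05e-06), where 14.5% of all genes were higher. Fibroblast-like nuclei led by Tmeff2 and Fgf10 had Timp2 at 396, 492 and 268 CPM, against 166, 289 and 165 CPM in those led by Abca8a, a difference of 0.92 (SE 0.16, edgeR adjusted p = 3.35e-05), where 6.04% of all genes were higher.

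Even in cardiomyocyte-like nuclei, where 8 of the 10 genes were lower, clusters differed. The 1525 nuclei led by D830005E20Rik and Fgf13 had Mmp16 at 5.55, 5.73 and 9.31 CPM, and the 197 nuclei led by Ryr3 and Cpne5 had it at 98.2, 74.7 and 173 CPM. The second cluster was higher than the rest of the class in Mmp16 by 2.18 (SE 0.30, edgeR adjusted p = 5.68e-08) and in Timp3 by 1.73 (SE 0.25, adjusted p = 2.02e-07), where 13% of all genes were higher. None of the cardiomyocyte markers was among its 10 leading genes and 1 marker of another class, the endocardial gene Cpne5, was, so its place in the class rests on the 8 cardiomyocyte markers detected in it. A cluster of 558 cardiomyocyte-like nuclei led by Erc2 and Lrrc4c likewise had none of them among its 10 leading genes, and 1 skeletal muscle marker. The first was lower in Mmp16 (-3.45, SE 0.31, edgeR adjusted p = 4.91e-13), where 7.36% were lower.

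Because TIMP2 and MMP14 form the complex that activates MMP2, the UMIs of these genes were set against each other within each class and pool. The ratios were chosen after the levels had been seen, are not adjusted for gene length and are compared only between classes. Mesothelial-like nuclei had 5.16, 5.0 and 4.15 Timp2 UMIs per Mmp14 UMI (4.77 ± 0.542), with no overlap with any other class. Valve interstitial-like nuclei had 0.753, 0.765 and 0.827 and fibroblast-like nuclei 0.717, 0.714 and 0.688, so pools differed little in these classes. Mmp2 per Mmp14 was highest in valve interstitial-like nuclei at 1.06, 0.933 and 0.820, above fibroblast-like nuclei (0.661 ± 0.0536) in every pool. Timp3 per Mmp2 was 0.946, 1.08 and 1.44 in valve interstitial-like nuclei and 0.253, 0.314 and 0.313 in fibroblast-like nuclei. It was 5.63 ± 1.72 in lymphatic endothelial-like, 4.04 ± 1.96 in mesothelial-like and 3.36 ± 1.15 in cardiomyocyte-like nuclei, with overlapping ranges. The lymphatic endothelial-like ratio rests on 14, 28 and 13 Mmp2 UMIs.

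**Figure D4:**
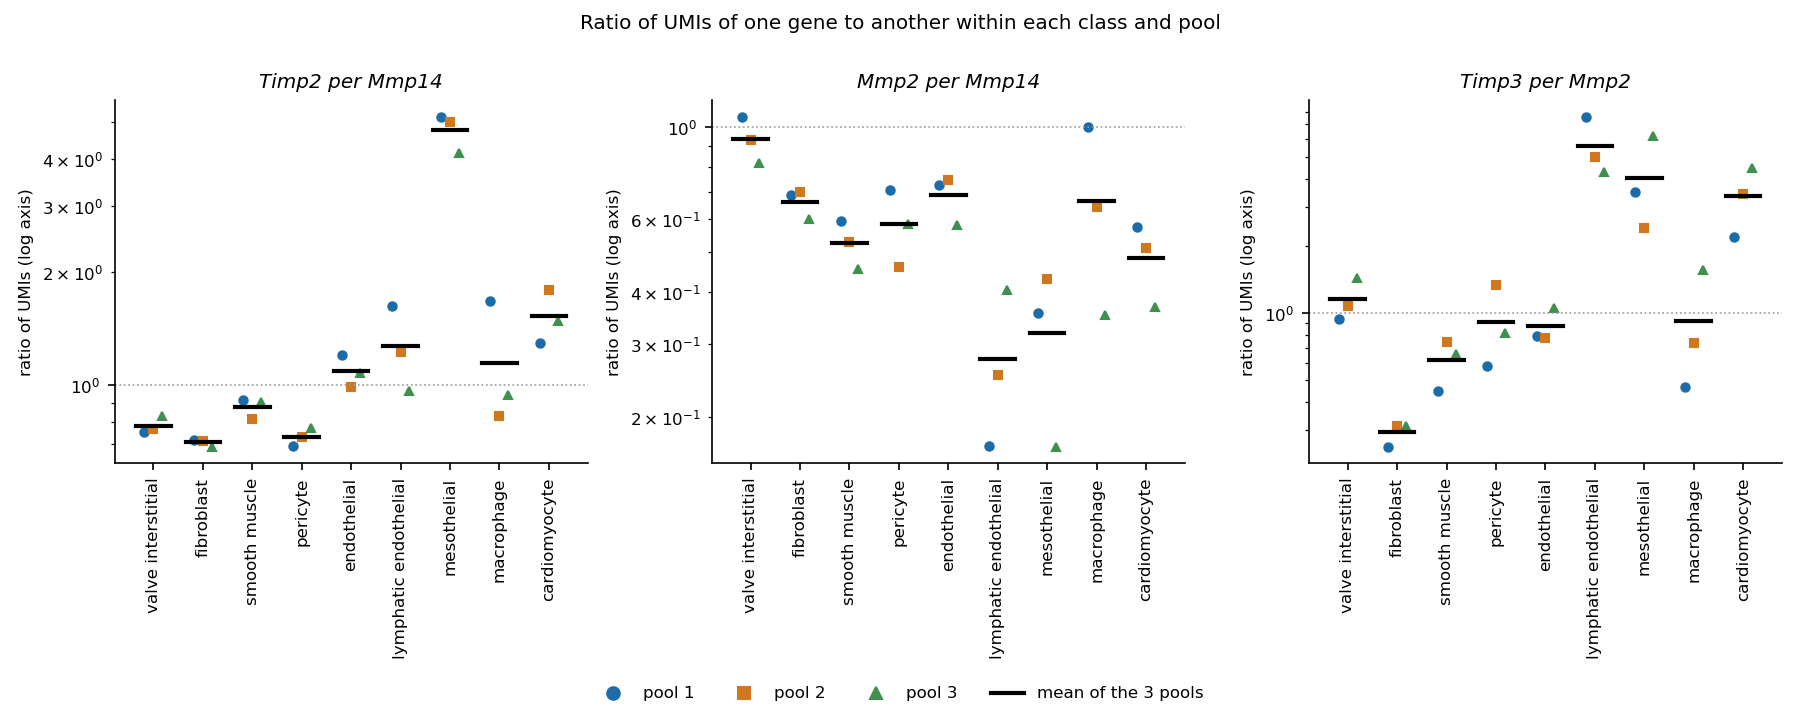
Ratio of UMIs of 1 gene to another (y axis, log scale) in the 9 classes (x axis), with 1 symbol per pool, a bar at the mean of the 3 pools and a dotted line at equal UMIs. Timp2 per Mmp14 stands at a mean of 4.77 in the mesothelial class and 0.706 in the fibroblast class.

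In single nuclei the genes were sparse. With each nucleus thinned to 1000 UMIs, an Mmp2 UMI was found in 20.2% (Wilson 95% interval 17.2 to 23.4), 24.9% (20.6 to 29.6) and 14.4% (11.5 to 18.1) of the valve interstitial-like class in pools 1, 2 and 3. The mean was 19.8% ± 5.21, against 1.21% ± 0.879 of cardiomyocyte-like and 3.84% ± 2.20 of macrophage-like nuclei. Free RNA was not measured here, and the shares of these 2 classes are given only for comparison. The unthinned share in that class was 42.9% ± 13.9, at a median of 3600 UMIs per nucleus, where cardiomyocyte-like nuclei had a median of 5421 and macrophage-like nuclei 3483. Thinned shares of nuclei with a Timp3 UMI were 26.8% ± 4.25 in lymphatic endothelial-like and 20.9% ± 5.45 in valve interstitial-like nuclei, against 3.29% in cardiomyocyte-like and 6.03% in macrophage-like nuclei. Timp2 was found in 58.0% ± 7.54 of mesothelial-like nuclei, against 3.61% and 9.19% in those classes. Mmp16 was found in 41.5% ± 2.41 of smooth muscle-like and 41.4% ± 0.223 of fibroblast-like nuclei, against 2.48% and 8.61%. For Timp1 the share was 8.57% ± 1.60 in mesothelial-like and 4.65% ± 0.627 in valve interstitial-like nuclei, against 0.426% and 1.29%. Mmp15 was found in 5.37% ± 0.366 of cardiomyocyte-like nuclei, against 0.315% of smooth muscle-like and 0.668% of macrophage-like nuclei.

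All 3 genes of the MMP2 activation step could be read in the same nucleus only rarely at this depth. Thinned to 1000 UMIs, 18 of 640, 13 of 354 and 3 of 436 valve interstitial-like nuclei held a UMI each of Mmp2, Mmp14 and Timp2 (2.39% ± 1.54), with pool 3 lowest. The product of the 3 single shares was 0.686%. Fibroblast-like nuclei had 1.85% ± 0.731 (product 0.969%) and endothelial-like nuclei 0.531% ± 0.383 (product 0.326%), while 0 of 2353 cardiomyocyte-like nuclei had all 3, which allows a share of up to 0.127% at that depth. Smooth muscle-like nuclei had 0.301% ± 0.231 (product 0.0938%). Thinned to 2000 UMIs, the valve interstitial-like share was 6.81% ± 3.49 (product 3.56%), the fibroblast-like share 5.57% ± 0.828 (product 3.81%), the endothelial-like share 3.12% ± 1.39 (product 1.98%) and the smooth muscle-like share 0.949% ± 0.593 (product 0.585%), and 3 of 2273 cardiomyocyte-like nuclei had all 3.

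Pools differed in the same direction for several of the genes. Over the 9 classes, the median ratio of the level in pool 3 to the mean of pools 1 and 2 was 0.586 for Mmp2, 0.667 for Mmp11, 0.725 for Mmp14 and 0.699 for Timp2, and pool 3 had the lowest of the 3 levels in 8 of 9 classes for each. For Mmp16 the median ratio was 1.30, and pool 3 had the highest level in 6 of 9 classes. Pool 3 also had the smallest share of nuclei over 5% mitochondrial UMIs and the lowest median UMI count, and the part of either in these ratios was not tested.

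The nuclei that were left out for mitochondrial UMIs were read separately, with each level in CPM of the non-mitochondrial UMIs and doublets kept. In all 3 pools they had more Mmp2 (2.27, 1.96 and 2.33 times the level within the limit), Mmp14 (2.40, 2.06 and 3.41), Timp1 (2.44, 2.62 and 2.84), Timp2 (1.94, 1.66 and 3.43) and Timp3 (2.03, 1.88 and 3.46). Mmp16 was lower there, at 0.455, 0.452 and 0.352 times the level within the limit. Its level was 388, 277 and 399 CPM within the limit and 177, 125 and 140 CPM over it, while Mmp14 was 163, 206 and 125 CPM within and 391, 423 and 425 CPM over it. These levels were not split by class, and the part of the mix of classes in them was not tested.

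**Figure D5:**
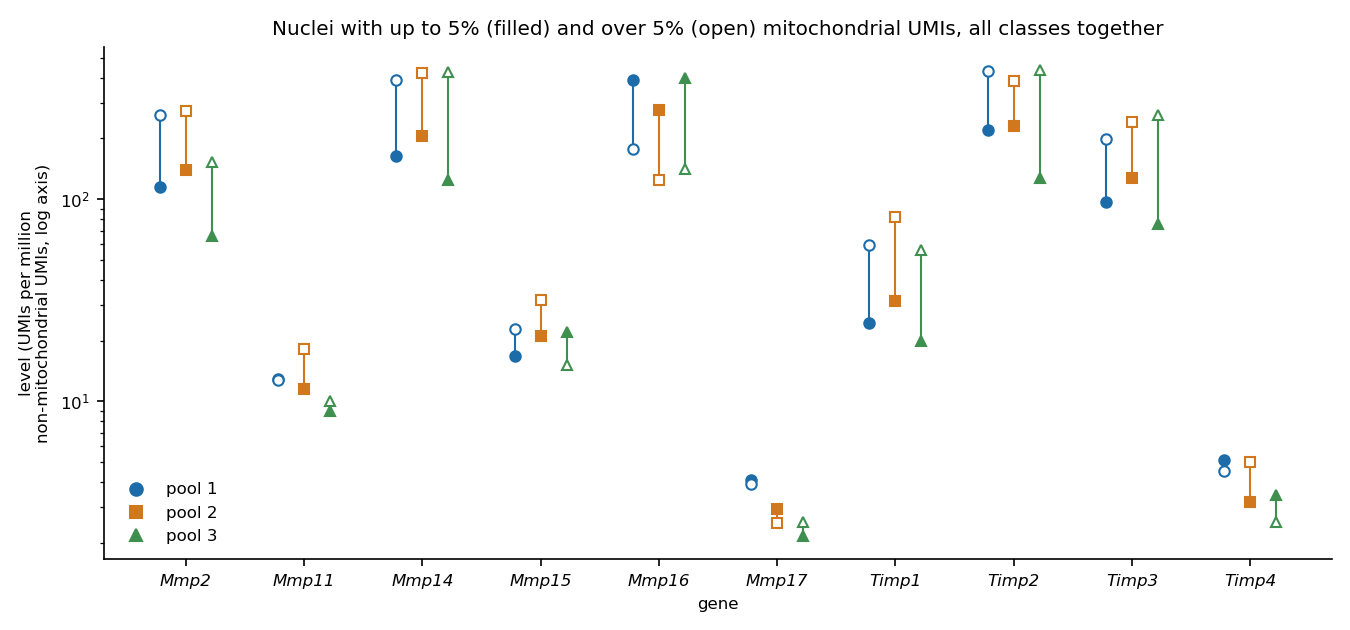
Level of each gene (y axis, CPM of the non-mitochondrial UMIs, log scale; genes on the x axis) in nuclei with up to 5% mitochondrial UMIs (filled) and over 5% (open), with 1 symbol shape per pool and a line joining the symbols of a pool. For Mmp16 the open symbols lie below the filled ones in the 3 pools, at 0.352 to 0.455 times their level, and for Mmp2, Mmp14, Timp1, Timp2 and Timp3 they lie above them.

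Other genes of matrix breakdown were followed as 5 lists. Of 17 other metalloproteinases, 4 passed the filter on low counts (Mmp13, Mmp19, Mmp23 and Mmp28), Mmp9 had 15 UMIs in all nuclei analysed and Mmp3 had 13. In valve interstitial-like nuclei 2 of the 4 were higher (Mmp23 by 1.65 and Mmp19 by 1.81) and 1 was lower (Mmp28, -0.78). Mmp23, a membrane-held protease, was 179 ± 27.9 CPM in mesothelial-like, 116 ± 17.7 in valve interstitial-like and 105 ± 23.9 in fibroblast-like nuclei. Mmp28, or epilysin, was 107, 94.1 and 107 CPM in endothelial-like nuclei, and the collagenase gene Mmp13 had 26 of its 33 UMIs in macrophage-like nuclei (16.0 ± 5.02 CPM), through which alone it passed the filter. Of 13 activators and other inhibitors tested, 4 were higher in valve interstitial-like nuclei (Cd44, Lrp1, Plat and Reck) and 1 lower (Plaur), where 19.2% and 14.7% of all genes were. Fibroblast-like nuclei had 6 higher, where 17.1% of all genes were, and cardiomyocyte-like nuclei had 2 higher and 10 lower, where 35.6% and 32.9% were. Reck, a membrane-bound inhibitor of several metalloproteinases, was 120 ± 10.9 CPM in fibroblast-like and 101 ± 6.52 CPM in valve interstitial-like nuclei. The list's median difference was 0.24 in valve interstitial-like nuclei and -1.53 in cardiomyocyte-like nuclei, where that of all genes was 0.01 and -0.02.

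Of 12 matrix substrate genes, all tested, 6 were higher in valve interstitial-like nuclei (Col1a1, Col1a2, Col3a1, Dcn, Vcan and Bgn) and 4 lower (Fn1, Eln, Col4a1 and Col4a2), beside the same 19.2% and 14.7% of all genes. Fibroblast-like nuclei had 11 higher, mesothelial-like nuclei had 9 higher and 1 lower, and cardiomyocyte-like and macrophage-like nuclei had 11 lower each, where 17.1% (fibroblast-like higher), 30.8% and 30.6% (mesothelial-like), 32.9% (cardiomyocyte-like lower) and 11.3% (macrophage-like lower) of all genes were. The list's median difference was 0.49 in valve interstitial-like and 1.21 in fibroblast-like nuclei. Unlike the genes of the other lists, these genes were not kept out of the clustering. Col1a1, Col1a2 and Dcn were also naming markers of the fibroblast-like class, and Vcan of the valve interstitial-like class. The calls of this list were therefore partly set by how the classes were made and named. Of 10 genes of the ADAM family tested, which holds membrane sheddases and members without protease activity such as ADAM23, 2 were higher (Adam19 and Adam23) and 4 lower in valve interstitial-like nuclei, where 19.2% and 14.7% of all genes were. In macrophage-like nuclei 7 were higher, including Adam8, Adam9 and Adam17, where 15.6% of all genes were. The median difference of the list was -0.30 in valve interstitial-like and 0.60 in macrophage-like nuclei.

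The genes Timp1, Timp3 and Timp4 each lie inside a synapsin gene on the opposite strand (Timp1 in Syn1, Timp4 in Syn2 and Timp3 in Syn3, by the GENCODE M21 annotation of GRCm38). Whether the counting used strand is not given in the sources used here, so the synapsin levels are set beside those of the inhibitors. Syn1 was too low to be tested. Syn3 was 51.4 CPM in endothelial-like and 25.4 CPM in valve interstitial-like nuclei, where Timp3 was 124 and 312. The difference of valve interstitial-like from endothelial-like nuclei was -0.99 for Syn3 and 1.35 for Timp3, both called, and in cardiomyocyte-like nuclei Syn3 was higher (0.95) and Timp3 lower (-1.33). In other classes both genes were called in the same direction: lymphatic endothelial-like (Syn3 1.01, Timp3 1.92), mesothelial-like (0.65 and 1.51), macrophage-like (-1.15 and -1.41) and fibroblast-like nuclei (-1.62 and -0.71). They also shared a direction in the valve interstitial-like class against the fibroblast-like class (1.43 and 2.20). How far reads of Syn3 and Timp3 entered each other's counts was not tested. Syn2 was 54.3 ± 40.3 CPM in lymphatic endothelial-like and 0.502 CPM in the valve interstitial-like class, and 5.59 CPM in smooth muscle-like nuclei, where Timp4 was highest. Timp4 also lies inside Gm17482 on the opposite strand. Mmp11 overlaps Chchd10 and Mmp16 overlaps the pseudogene Gm11860 on the opposite strand, and Timp2 overlaps Cep295nl on the same strand. How reads of overlapping genes were assigned is not given in the sources used here, so the counts of these genes are uncertain to that extent.

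Genes with the most similar order of levels were sought across the 9 class means of log2(CPM + 1) among 13482 genes, as a description of 9 points that share their libraries. For Mmp2 they were Slc35e3 (Pearson correlation 0.964), Nfix (0.959) and Pdgfra (0.957). For Mmp14 they were Dbn1 (0.985), H13 (0.983) and 1110038B12Rik (0.969), and for Mmp15 they were Clic5 (0.969), Uqcrc2 (0.969) and Nudt3 (0.962). For Mmp16 they were Gm34090 (0.981), Gfpt1 (0.973) and Arcn1 (0.971), and for Timp4 E2f7 (0.967), Ppp2r1b (0.938) and Terf1 (0.932). Timp1 was closest to Zfp185 (0.965), Cemip (0.958) and Nt5c (0.954), Timp2 to Ahnak2 (0.992), Pfdn6 (0.990) and Capns1 (0.989), and Timp3 to Atg2a (0.922), Gap43 (0.920) and Med22 (0.910). Mmp11 was closest to Mnd1 (0.981), Snai2 (0.975) and Gm6277 (0.969), and Mmp17 to Dusp19 (0.936), Cald1 (0.936) and Npy1r (0.926). Among the 10 genes themselves, Mmp2 and Mmp14 had a correlation of 0.902, Mmp11 and Mmp16 of 0.865 and Timp1 and Timp2 of 0.831, while Mmp15 had -0.90 with Mmp11 and -0.89 with Mmp16.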

How the data were processed

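Nuclear RNA of 3 pools was read with the gene expression part of 10x Multiome. The deposited values are raw UMI counts, by gene and nucleus, which the authors made with Cell Ranger, version 7.1.0 per the file headers and 7.0.1 per the submitters' processing notes, which also name the genome build GRCm39. The annotation release and the use of strand are not given in the sources used here. The count totals of the analysed nuclei were 33853754, 17604323 and 18217799 per pool.

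Nuclei with at least 1000 UMIs, 300 genes and at most 5% mitochondrial UMIs were kept. The automatic threshold of Scrublet marked 0 doublets, so the highest scores were marked at 0.8% per 1000 deposited nuclei, which removed 597, 154 and 138. Scanpy 1.11.5 and leidenalg 0.10.2 gave 27 clusters from 2000 variable genes, 30 components and 15 neighbours at a resolution of 1, without integration. The 10 genes and the listed genes were kept out of the clustering, except the matrix substrates. A cluster took a class name when at least 3 of its markers were detected in 10% of nuclei and 2-fold higher than elsewhere, with a pseudocount of 5 CPM, unless at least 3 markers of another class, and more than its own, were among its 10 leading genes, which left 1 cluster unnamed.

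Counts summed per pool and class (27 libraries, classes with at least 20 nuclei in each pool) or per pool and cluster were tested with edgeR 4.0.16 (R 4.3.3), TMM scaling, filterByExpr with a block for the pool, whose classes share their animals and library. DESeq2 1.42.0 was an alternative. Methods were tested on simulated data. Shares of nuclei carry Wilson 95% intervals and a count of 0 is read as up to 3 counts, and both cover counting error only. Shares were not tested, since all classes come from the same 3 pools, which allow no permutation p below 0.1. Named genes are the 10 genes, the genes of 5 lists, the 3 genes most correlated with each, and 1 or 2 leading genes per cluster. The members and lists were chosen with earlier results of these data known.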

Additional observations from a re-analysis of the deposited data

How the results depend on the processing

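Each of the 141 called differences of the 10 genes was recomputed under the alternatives, and 89 stayed called in the same direction under every alternative that could be fitted for them, among them 36 of the 55 of a class against the others and 32 of the 60 of clusters. Where a class has only 2 clusters, both enter with the same test and the sign turned. Of 1615 alternative values, 153 kept their direction and were no longer called, and 2 turned sign and were not called either. Those were Timp4 in cardiomyocyte-like nuclei without a mitochondrial limit (0.24) and Timp1 in the Pcdh17 endothelial-like cluster without pool 3 (-0.28, and up to 2.77 without another pool). The cause was not tested. Without pool 1, Mmp17 and Timp4 were too low to be tested in the classes, and 102 of 132 calls were kept, against 114 of 141 without pool 2 and 125 of 141 without pool 3. Without the mitochondrial limit 70 of 81 calls were kept, and 78 of 81 with doublets included.

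Without the replicate block, which joins the classes of 1 pool, 48 class differences were called instead of 55 and 43 cluster differences instead of 60.

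The count of genes called between pericyte-like and smooth muscle-like nuclei was 2. It was 1 with DESeq2 and 1 without the lymphatic endothelial-like class, 0 without the replicate block (edgeR, 3 at an unadjusted p under 0.05), and 4 with doublets kept, without a mitochondrial limit, at 500 UMIs or at 2000 UMIs. It ranged from 0 to 2 when single pools were left out. The valve interstitial-like share of nuclei with an Mmp2 UMI was 42.9% without thinning and 32.2% thinned to 2000 UMIs, and the joint share of Mmp2, Mmp14 and Timp2 was 6.81% at 2000 UMIs. Depth limits Mmp17 (235 UMIs) and Timp4 (282 UMIs).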

Other observations

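The cluster of 759 nuclei that stayed unnamed was led by 4 haemoglobin genes, followed by the muscle genes Mb, Myl3, Fabp3, Actc1, Ckm and Cox7a1. Of the cardiomyocyte markers, 6 met the marker rule there (Myh6, Myh7, Tnnt2, Tnni3, Myl7 and Nppa), and the median mitochondrial share was 3.57%. Mmp14 was 225 ± 67.7 CPM there (SD, n = 3), Timp2 219 ± 46.9, Mmp16 206 ± 50.9 and Timp3 94.8 ± 20.8, at a median of 2415 UMIs per nucleus. In the cardiomyocyte-like class Mmp14 was 22.4 CPM. These nuclei entered no comparison.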
